A study of Caenorhabditis elegans with 2 samples.

Results

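mir-251 and mir-252 are a pair of Caenorhabditis elegans microRNA (miRNA) genes that are grouped together because their mature strands have similar 5′ ends. All loci named cel-miR-251 or cel-miR-252, with any arm suffix, were taken from the authors' table, which gave 3 of 375 mature miRNA loci. cel-miR-251 had 1 locus, called miR-251 here, and cel-miR-252 had 2, the arms miR-252-5p and miR-252-3p. Small RNA had been sequenced from whole worms of the wild-type strain N2, labelled as Day 1 in age, that were treated with enoxacin or with its vehicle. Enoxacin, an antibiotic of the fluoroquinolone class, is known from mammalian cells to bind TRBP, a partner of Dicer, and to raise miRNA processing. Each group had 1 library. The submitters speak of 3 independent experiments, but the sources used here do not say whether their worms were pooled, nor the dose, the vehicle or the length of treatment.

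A miRNA gene is transcribed as a precursor that folds into a hairpin, from which Drosha and Dicer cut a short duplex. Usually 1 strand of that duplex, the 5p or the 3p arm, is kept by an Argonaute protein, and the other is lost. The bases near the 5′ end of the kept strand, the seed, pair with target messenger RNAs, so miRNAs with like 5′ ends can share targets. mir-252 belongs to a family that is conserved in invertebrates, Drosophila among them. The sequences of these miRNAs were not used here, so the likeness of their 5′ ends was taken from their naming as a family and was not checked.

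The vehicle library held 10698845 reads and the enoxacin library 8787665 reads, by the authors' totals. miRNA loci held 3.74% and 3.78% of them. The unit of a level is RPM, which scales reads by the library total. A single read stood for 0.0935 RPM in the vehicle library and for 0.114 RPM in the enoxacin library. miRNAs known from muscle, neurons, intestine, epidermis and glia, and embryos were used to check the whole-worm label, and 23 of their 25 loci were read in vehicle and 24 in enoxacin. The neuronal miRNA lsy-6 was unread in both. The summed level of the intestine loci was 47.2 RPM in the vehicle library and 104 RPM in the enoxacin library. The sums in the same order were 409 and 370 RPM for muscle, 16.3 and 13.9 RPM for neurons, 123 and 123 RPM for epidermis and glia, and 5666 and 5355 RPM for embryos. The part of tissue makeup in the results below was not tested. Replicate error could not be estimated from 1 library per group, so the groups were not tested against each other and no p-value is given. The 95% intervals below are exact and cover counting error only, and without molecular identifiers the reads cannot be taken as independent molecules. In whole worms, fewer cells of a type and less RNA per cell cannot be told apart.

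miR-252-5p, the abundant strand of the mir-252 hairpin, was the member that both libraries measured with some precision. It lay at chrII:11446854-11446876 on the minus strand (ce10), a locus of 23 nt. It had 194 reads in vehicle, or 18.1 RPM (exact Poisson interval 15.7 to 20.9 RPM). It had 165 reads in enoxacin, or 18.8 RPM (16.0 to 21.9 RPM). The intervals of the levels overlapped over most of their width. Among the 375 loci it ranked 61st by reads in vehicle and 60th in enoxacin, where it made up 0.0484% and 0.0496% of all miRNA reads. It held nearly the same place in both profiles.

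The ratio of enoxacin to vehicle for miR-252-5p was 1.04, with a counting interval of 0.836 to 1.28. The corresponding log2 ratio, with 0.5 reads added to each count, was 0.05. Loci with a sum of 20 or more reads were compared, and one was called higher or lower in enoxacin if it passed 1.5-fold with a counting interval that excluded a ratio of 1. miR-252-5p met neither condition and was the 1 member of 3 to reach the read minimum, so 0 members were called. Of all 152 compared loci, 32 (21.1%) were called, 20 (13.2%) as higher and 12 (7.89%) as lower. The interval leaves room for a level up to 1.28-fold higher or down to 0.836 of that in vehicle, and a change of 1.5-fold in either direction lies outside it as far as counting error goes.

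Among the 152 compared loci, whose median ratio was 1.09, 88 had a higher log2 ratio than miR-252-5p and 63 a lower one. By the size of the log2 ratio, 12 loci were nearer to equal levels and 139 were farther. Scaling by the median of ratios shifted every log2 ratio by -0.15 and TMM scaling by -0.14, and with them the log2 ratio of miR-252-5p was -0.10 and -0.09, respectively. The side of 1 on which miR-252-5p fell therefore depended on the scaling, while its counting interval included a ratio of 1 under each scaling tried.

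**Figure D1:**
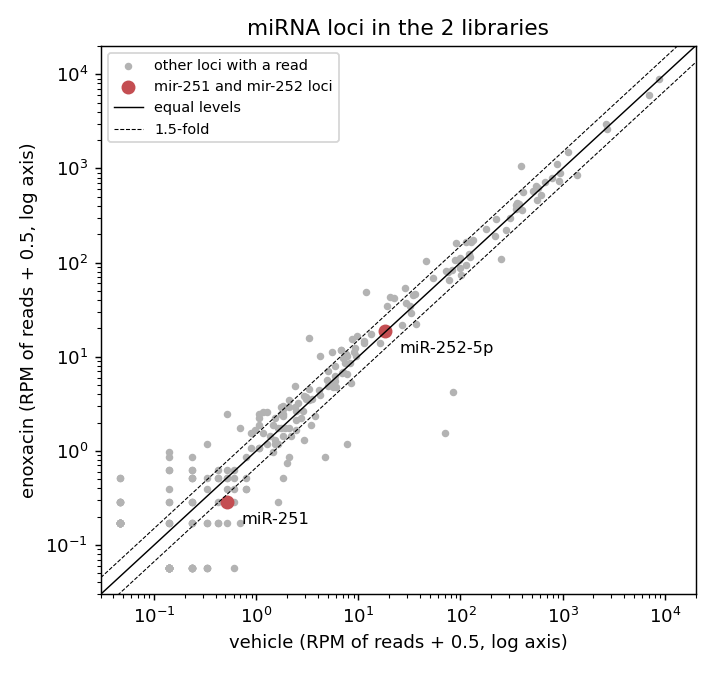
Levels of all loci with a read, with vehicle on the x axis and enoxacin on the y axis, each in RPM of the reads plus 0.5 on a log axis; each point is 1 locus, the solid line marks equal levels and the dashed lines 1.5-fold. miR-252-5p lies on the line of equal levels (18.1 and 18.8 RPM), and miR-251 lies below it among loci with few reads.

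miR-251, the single mature strand of the mir-251 hairpin in the table, was scarce in both libraries. It lay at chrX:11004680-11004703 on the plus strand (ce10), a locus of 24 nt. It had 5 reads in vehicle, or 0.467 RPM (0.152 to 1.09 RPM). It had 2 reads in enoxacin, or 0.228 RPM (0.0276 to 0.822 RPM). The intervals of the levels overlapped. In both libraries it was near the lower limit of what could be read, and 174 loci had more reads over both libraries.

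The ratio for miR-251 was 0.487, with a counting interval of 0.0464 to 2.97, and its log2 ratio was -0.85. A level 2.05-fold lower in enoxacin, as the point value gives, and equal levels both lie inside this interval, so no difference was detected. With 7 reads in all, 2 of the 8 possible splits between the libraries would have given an interval excluding 1, namely those with every read in 1 library. A total of 6 loci had 7 reads, miR-251 included. miR-1821 and miR-66-3p had the same split as miR-251, miR-239b-5p and miR-241-3p had the reverse, 2 vehicle reads and 5 enoxacin reads, and miR-358-5p had 3 and 4.

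**Figure D2:**
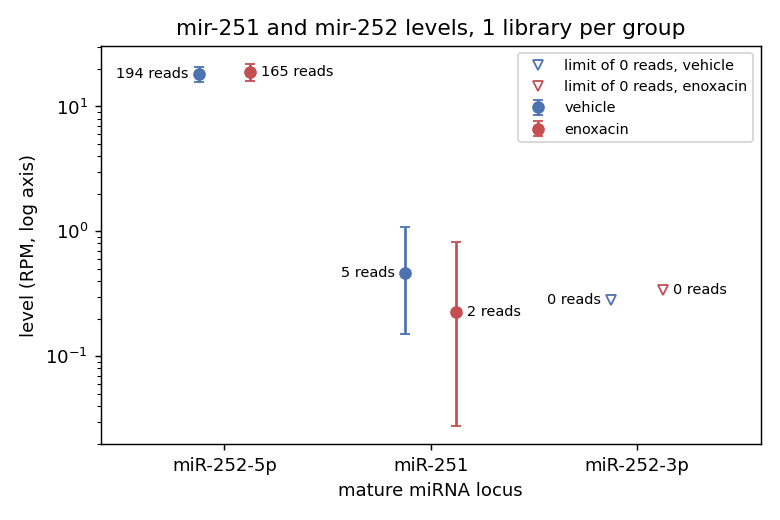
Level of each member in RPM (log axis) in the vehicle and enoxacin libraries, with the read count beside each point and bars for the exact 95% Poisson interval. Open triangles mark the limit of 3 reads set for a count of 0. miR-252-5p stands at 18.1 and 18.8 RPM, miR-251 below 1 RPM in both libraries, and miR-252-3p had no read.

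Within the family, miR-252-5p was far more abundant than miR-251. Each read counts 1 mature strand, and the loci differ by 1 nt in length, so read numbers were compared as they stand. In vehicle there were 38.8 reads of miR-252-5p for each read of miR-251 (exact interval 16.3 to 121). In enoxacin there were 82.5 (22.5 to 687). miR-251 made up 2.51% of the family's 199 vehicle reads, with an exact binomial interval of 0.821 to 5.77%, and 1.20% of its 167 enoxacin reads, with an interval of 0.145 to 4.26%. The order of the members was the same in both libraries, and the intervals of the shares overlapped. How evenly the library preparation recovers the different sequences was not tested.

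The ratio of miR-251 divided by that of miR-252-5p, which does not depend on the scaling, was 0.470, with an exact conditional interval of 0.0443 to 2.92. The members were therefore not shown to differ in their response, nor to respond alike, since the interval spans a wide range on both sides of 1. The reads of all members summed gave a ratio of 1.02 (0.827 to 1.26). This sum was almost wholly miR-252-5p.

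miR-252-3p, the other arm of the mir-252 hairpin, had 0 reads in both libraries. It lay at chrII:11446819-11446837 on the minus strand (ce10). The limit that a count of 0 allows was set at 3 reads, which is 0.280 RPM in vehicle and 0.341 RPM in enoxacin. No ratio can be given for it. Since all 194 and 165 reads of the hairpin came from the 5p arm, the same limit of 3 reads allows the 3p arm a share of up to 1.55% in vehicle and 1.82% in enoxacin, and of up to 0.836% over both libraries. The hairpin was thus read from its 5p strand in both groups, and no shift between the arms was detected.

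An unread minor arm was uncommon at this depth. Of 75 hairpins that had both arms in the table and at least 100 reads of the major arm over both libraries, 3 had no read of the minor arm, namely mir-252, mir-245 and mir-59. The major arms of mir-245 and mir-59 had 135 and 134 reads, against 359 for miR-252-5p. Another 59 hairpins had at least as many major-arm reads as mir-252, and 0 of them had an unread minor arm. Over the 75 hairpins the minor arm took a median of 0.671% of the reads, with quartiles of 0.259% and 2.84%, so the limit of 0.836% for mir-252 lies between the quartiles. The 14 hairpins within 2-fold of its major-arm reads had from 1 to 194 reads of the minor arm. Their median minor-arm share was 3.39%, above the limit for mir-252, and 4 of them had a share below the limit of 0.836%. mir-238, at 0.990%, lay above that limit but below the exact limit of 1.02%. Beside the nearest of these in depth, mir-124 with 1 minor-arm read against 295, the 0 reads of mir-252 differ by a single read.

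**Figure D3:**
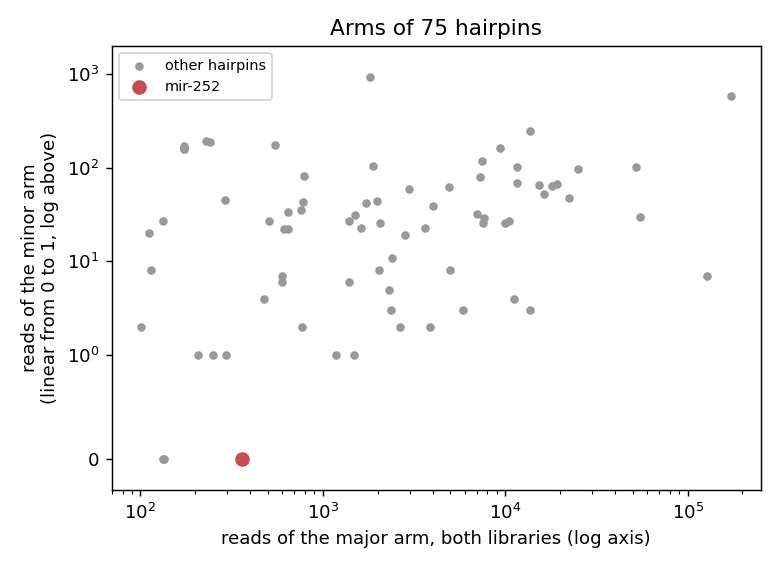
Reads of the minor arm (y axis, linear from 0 to 1 and log above) against reads of the major arm (x axis, log) over both libraries for 75 hairpins with at least 100 major-arm reads, 1 point per hairpin. mir-252 sits at 359 major-arm and 0 minor-arm reads, to the right of mir-245 and mir-59, which overlap at 0.

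The miR-252-3p locus is also short, at 19 nt. Loci of 19 nt numbered 4 in all, and 1 was of 18 nt. Of these 5, miR-63-5p alone was read, with 19 vehicle reads and 26 enoxacin reads, and miR-243-5p, miR-261 and miR-272 were unread like miR-252-3p. In another annotation, WBcel235, miR-63-5p is 23 nt long, while the unread loci have the same lengths as in the table. Unread loci were also found at greater lengths. Of all 375 loci, 118 were unread in both libraries, among them miR-268 at 24 nt. Whether the length of a locus bears on its count was not tested.

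The 3 loci of other hairpins nearest to miR-252-5p in level, by the distance between log2 RPM values over the 2 libraries, were miR-63-3p, miR-124-3p and miR-236-3p. The distances were 0.47, 0.47 and 0.60. For miR-63-3p there were 142 vehicle reads and 151 enoxacin reads, a ratio of 1.29 (1.02 to 1.64). miR-124-3p, a miRNA conserved in animals and known from neurons, had 174 and 121 reads, a ratio of 0.847 (0.666 to 1.07). miR-236-3p, the worm relative of the miR-200 family, had 287 and 192 reads, a ratio of 0.814 (0.675 to 0.981). None of these 3 was called higher or lower. Their ratios lay on both sides of that of miR-252-5p, and each of their intervals overlapped its interval. The 3 loci were chosen by their levels in both libraries, which also make up the ratio. Ratios near that of miR-252-5p therefore follow in part from the choice and are no separate result.

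The other loci within 2-fold of the reads of miR-252-5p, a window chosen after the values were seen, give the spread of ratios at like read number. They numbered 18, of which 6 were called higher, 1 was called lower and 11 were neither. Their ratios ran from 0.601 for miR-52-3p to 4.06 for miR-47-3p, with a median of 1.28. The 7 called loci make 38.9% of the 18, against 21.1% of all 152 compared loci. The 18 are not all separate hairpins, since both arms of mir-239a and of mir-240 are among them. The ratio of miR-252-5p lay below the median of these loci and above those of miR-52-3p, miR-236-3p, miR-124-3p and miR-241-5p.

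**Figure D4:**
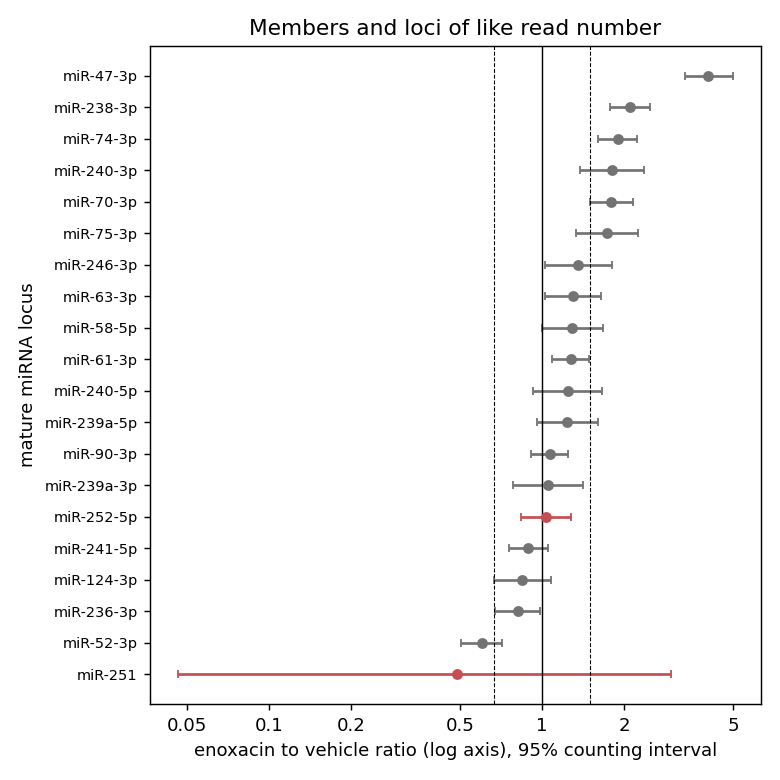
Ratio of enoxacin to vehicle (log axis) with its 95% counting interval for miR-251, miR-252-5p (both in red) and 18 loci within 2-fold of the reads of miR-252-5p (grey); the solid line marks a ratio of 1 and the dashed lines 1.5-fold. The interval of miR-252-5p, 0.836 to 1.28, lies between the dashed lines, and that of miR-251 runs from 0.0464 to 2.97.

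The members lay apart from one another and from other miRNAs of the table. mir-252 is on chromosome II and mir-251 on chromosome X. No other miRNA locus of the table lay within 10 kb of either: the nearest to miR-252-5p was miR-35-5p, at 90.7 kb, and the nearest to miR-251 was miR-787-5p, at 290.0 kb (ce10). No locus of the table overlapped a member on the opposite strand.

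In the WBcel235 annotation, used by name because it is of another build, mir-251 (WBGene00003345) overlapped no other gene. mir-252 (WBGene00003346) lay between exons of the protein-coding gene W02B12.13, which is on the opposite strand. It also overlapped an exon of W02B12.17, a non-coding RNA gene on the opposite strand. The sources used here do not say whether the authors counted by strand, so reads of W02B12.17 cannot be told apart from those of mir-252.

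The ends of miR-251 differ between the annotations. Its locus in the table was 24 nt long, against 22 nt in WBcel235, while miR-252-5p and miR-252-3p had the same lengths of 23 and 19 nt in both. Of 338 loci whose hairpin could be matched by name, 322 had the same length in both annotations and 16 did not, and for 9 of these the difference was 2 nt or more. Where the 5′ end of a mature miRNA is set decides which bases form its seed, but lengths alone do not say which end of miR-251 was moved. Whether reads of a different end were left out of its count was not tested.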

How the data were processed

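Per the labels' protocols, TRIzol RNA was enriched for small RNA and sequencing libraries were prepared with a SOLiD kit. The submitters' processing notes name Bowtie2, bedtools and the build ce10, without versions, roles or the handling of strand and multiple matches. The deposited table held raw read counts per mature miRNA locus for 1 library per group, and RPM values that the authors obtained from 1 fixed total per library, recovered here from both columns. The deposited ratio and log2 columns equalled the ratios computed here without a pseudocount. The control column was read as the vehicle sample, whose description is control worms.

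Ratios were computed from counts and totals with exact conditional binomial (Clopper-Pearson) intervals at 95%, and log2 ratios with a pseudocount of 0.5 reads. The whole table was analysed at a minimum of 20 reads and a threshold of 1.5-fold. The method was tested on simulated counts that held counting error only, so variation between worms or libraries was not covered. Relative ratios used the exact conditional odds-ratio interval. The rule for named miRNAs took every member, the 3 nearest loci and miRNA loci within 10 kb. A further rule, on shared 5′ sequence, could not be applied without sequences. Other loci were named after their values were seen. Members and lists were chosen with earlier results of these data known. Alternatives were other scalings, minima, thresholds and a pseudocount of 1. Python 3.11.15, numpy 2.4.6, pandas 2.3.3, scipy 1.17.1, matplotlib 3.10.9, R 4.3.3 and edgeR 4.0.16 (TMM) were used.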

Additional observations from a re-analysis of the deposited data

How the results depend on the processing

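Of 41 values under alternatives, 36 stayed within the counting interval, or for counts within 1.5 times the main count. These 36 include the counts of called members, and a relative ratio that summing the unread miR-252-3p could not change. They also include the log2 ratios of miR-252-5p and miR-251. The largest shift from a scaling was -0.15, too small to take either log2 ratio out of its interval. The 5 values that moved were all counts of higher or lower loci over the whole table. No member was called under any scaling, minimum, threshold or pseudocount tried, nor with arms summed per hairpin. Of these settings, only the scalings move the counting intervals of the members, which a call requires to exclude a ratio of 1. The minima, thresholds, pseudocount and summed arms could therefore not have added a call. The log2 ratio of miR-252-5p ran from -0.10 with median-of-ratios scaling to 0.05, and that of miR-251 from -0.9996 with the same scaling to -0.72 with a pseudocount of 1. The 20 higher loci of the whole table became 12 at a threshold of 2, 35 at the lower of the alternative thresholds and 13 with arms summed. The 12 lower loci became 6 at a minimum of 100 reads, where fewer loci were compared, and 7 with arms summed. miR-252-3p gave no value under any setting, since it was unread. No paired analysis was possible because each group had 1 library, and there was no replicate to leave out. Depth limits miR-251, whose interval at 7 reads spans from 0.0464 to 2.97, and miR-252-3p, which has no ratio.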
